A study of Mus musculus with 10 samples.

Results

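Short H3K27me3 peaks that carried EZH2 in control mouse ES cells numbered 4084, or 33.75% of the 12100 H3K27me3 peaks called on chromosomes 1 to 19 in control replicate 1. A peak was a member of this set when it was under 10000 bp wide, overlapped a peak of control replicate 2 by 1 bp or more, and overlapped an EZH2 domain in both control EZH2 libraries. The members were selected on the control calls of both antibodies, so their control calls are given only as a description, and the measurements in the mutant cells are the ones the selection did not use. Another 4127 peaks under 10 kb met the same rule but overlapped no control EZH2 domain, 1220 had EZH2 in 1 control library, 538 shared peaks were 10 kb or wider, and 2131 peaks had no counterpart in control replicate 2.

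The study compared wild-type E14 ES cells, a mouse line labelled as strain 12910la and called control here, with E14 cells labelled as an Ezh2 knockout of exon 14, called ex14D here. The ex14D lines came from drug-selected colonies after CRISPR-Cas9, whose in/del in exon 14 left, by the study's account, only the splice form without that exon functional. Each genotype had 2 H3K27me3 libraries, 2 EZH2 libraries and 1 input library. Whether the replicate libraries came from separate cultures or clones was not stated, so p-values measure the spread between these libraries, which may be technical. ChIP-seq reads at Ezh2 cannot check the genotype, and the labelled cell type could be checked only for the absence of the repressive mark. No H3K27me3 peak in any of the 4 libraries lay over the TSS of Pou5f1, Sox2, Nanog, Esrrb, Zfp42, Tdgf1, Dppa5a or Lin28a, genes active in ES cells, or of Actb, Gapdh, Tbp or Eef1a1, and 1 library had a peak over that of Klf4.

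EZH2 is the methyltransferase of Polycomb repressive complex 2 (PRC2), which places up to 3 methyl groups on lysine 27 of histone H3, and H3K27me3 marks genes kept silent. In ES cells PRC2 sits mostly on CpG islands, stretches rich in unmethylated CG dinucleotides at the promoters of developmental genes, from which the mark spreads into the flanking chromatin. The broadest domains, such as those over the Hox clusters, hold many developmental regulators, and most other Polycomb promoters carry a shorter domain centred on a single CpG island.

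The sequences below show the CG content of 5 members and, beside them, of 1 short peak without EZH2. Each is the 200-bp stretch with the most CG dinucleotides among those of a peak that touch no annotated exon, read on the plus strand of GRCm38 (mm10), with every CG in capitals. Elavl3, Bmp6 and Mixl1 are members that kept EZH2 in both ex14D libraries, Gjc1 and Zyg11a are members that kept it in neither, and the peak at Nphs1 had no EZH2 in any library.
Elavl3, chr9:22050960-22051159: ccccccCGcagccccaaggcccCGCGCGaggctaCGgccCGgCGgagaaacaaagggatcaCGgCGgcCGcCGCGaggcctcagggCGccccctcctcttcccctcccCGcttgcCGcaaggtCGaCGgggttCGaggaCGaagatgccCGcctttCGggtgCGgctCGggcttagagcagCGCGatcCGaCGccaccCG
Bmp6, chr13:38345135-38345334: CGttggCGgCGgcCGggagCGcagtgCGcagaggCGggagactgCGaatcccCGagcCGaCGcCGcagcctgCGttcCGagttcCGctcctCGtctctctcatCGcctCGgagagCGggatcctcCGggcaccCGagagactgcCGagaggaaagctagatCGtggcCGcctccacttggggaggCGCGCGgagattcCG
Mixl1, chr1:180697036-180697235: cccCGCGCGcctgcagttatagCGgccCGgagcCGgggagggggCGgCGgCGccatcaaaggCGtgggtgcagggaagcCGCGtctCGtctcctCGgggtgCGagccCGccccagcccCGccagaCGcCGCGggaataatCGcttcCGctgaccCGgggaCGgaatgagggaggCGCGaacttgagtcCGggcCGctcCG
Gjc1, chr11:102819235-102819434: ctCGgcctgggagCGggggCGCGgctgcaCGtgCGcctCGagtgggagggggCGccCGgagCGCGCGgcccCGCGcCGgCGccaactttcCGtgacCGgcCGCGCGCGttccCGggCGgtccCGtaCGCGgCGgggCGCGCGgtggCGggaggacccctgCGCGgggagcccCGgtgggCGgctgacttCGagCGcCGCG
Zyg11a, chr4:108217619-108217818: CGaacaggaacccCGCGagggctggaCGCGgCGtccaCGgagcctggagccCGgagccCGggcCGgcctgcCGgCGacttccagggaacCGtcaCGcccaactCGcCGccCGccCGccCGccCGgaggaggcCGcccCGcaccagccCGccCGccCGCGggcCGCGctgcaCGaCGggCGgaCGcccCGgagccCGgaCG
Nphs1, chr7:30457697-30457896: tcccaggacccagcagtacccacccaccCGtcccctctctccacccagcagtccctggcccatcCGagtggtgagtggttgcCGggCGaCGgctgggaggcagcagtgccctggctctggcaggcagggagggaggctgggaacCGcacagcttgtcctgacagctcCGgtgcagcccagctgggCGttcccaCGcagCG

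The window of Elavl3, a neuronal RNA-binding protein gene, lay in its intron 964 bp downstream of the TSS and held 28 CG dinucleotides. The window of Bmp6, a secreted BMP ligand gene, lay between genes, at -482 bp from the TSS, and also held 28. That of Mixl1, a homeobox gene of mesendoderm, was centred at -101 bp from the TSS and held 29. The intronic windows of the gap junction gene Gjc1 and of Zyg11a held 40 and 35, at 352 bp and 325 bp downstream of the TSS. The richest exon-free window in the Nphs1 peak lay between genes at -2262 bp from the TSS and held 10. The observed over expected CpG ratio of these windows was 1.03, 1.14, 1.06, 1.18, 1.05 and 0.41 in the same order. The windows of Gjc1 and Zyg11a, under EZH2 and H3K27me3 in both control libraries, were under neither in ex14D, and they held more CG than those of Elavl3, Bmp6 and Mixl1.

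Over whole peaks, CpG density and promoter position separated the members from the short peaks without EZH2. The median observed over expected CpG ratio was 0.446 in members (quartiles 0.366 and 0.542), 0.207 in short peaks without EZH2 and 0.384 in peaks of 10 kb or wider, against 0.161 in all 1-kb windows of chromosomes 1 to 19. In the 1000 bp at the middle of each peak, a fixed width, the median was 0.556 in members and 0.207 in short peaks without EZH2. Median GC content was 52.4% in members, 49.1% in short peaks without EZH2 and 41.7% in the genome windows. The TSS of a gene (the 5′-most annotated one) lay inside 2403 members, which was 58.8% of them (exact 95% interval 57.3 to 60.3), compared with 4.19% of short peaks without EZH2 and 82.9% of wide peaks. Any annotated TSS lay in 2599 members, and of the other 1485, 747 touched an exon, 275 lay in introns and 463 lay between genes. The members covered 17.09 Mb in all, with a median width of 3904 bp (quartiles 2422 and 5645 bp), whereas the short peaks without EZH2 had a median of 1150 bp. MACS2 fold enrichment in control replicate 1 did not separate the classes, with medians of 3.28 in members and 3.29 in short peaks without EZH2. With the 2 control libraries averaged, EZH2 domains covered a median of 69.8% of a member's width. The members overlapped 80.9% and 58.4% of the EZH2 domains on these chromosomes in control replicates 1 and 2.

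The first question was how many members still carried H3K27me3 when only ex14D-EZH2 was functional. A peak overlapped 4003 members (98.0%) in ex14D replicate 1 and 3844 (94.1%) in replicate 2, and 3832 (93.8%, exact 95% interval 93.1 to 94.5) had one in both libraries. All control replicate 1 peaks together gave 56.5%. Only 69 members (1.69%) had no H3K27me3 peak in either ex14D library. Short peaks without EZH2 were found again in 61.0% and 39.2% of cases in the ex14D libraries and in 37.8% (36.3 to 39.3) in both, a difference of 56.03 percentage points from the members. Shared peaks of 10 kb or wider were found again in 100% and 99.8%. Intervals on shares cover counting error only, and with 2 libraries a genotype no test of these shares was made.

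Width differed between the members and the peaks without EZH2, and the gap narrowed when widths were matched. Within the narrowest tercile of both classes together, the share found again in both ex14D libraries differed by 38.6 points. In the middle tercile it was 91.7% of members against 45.2% of peaks without EZH2, and in the widest the difference was 25.3 points. Within the terciles of control replicate 1 fold enrichment it lay between 55.3 and 56.6 points. That measure had near-equal medians in the 2 classes and a rank correlation of only 0.207 between the control replicates over members. These terciles therefore cannot match the classes on strength. The number of peaks on chromosomes 1 to 19 differed between libraries, with 12100 and 19639 called in control and 14131 and 9233 in ex14D. With the 9233 peaks of smallest p in every library, 1679 peaks met the rule and 72.2% of them had a peak in both ex14D libraries, still 44.2 points above the peaks without EZH2.

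**Figure D1:**
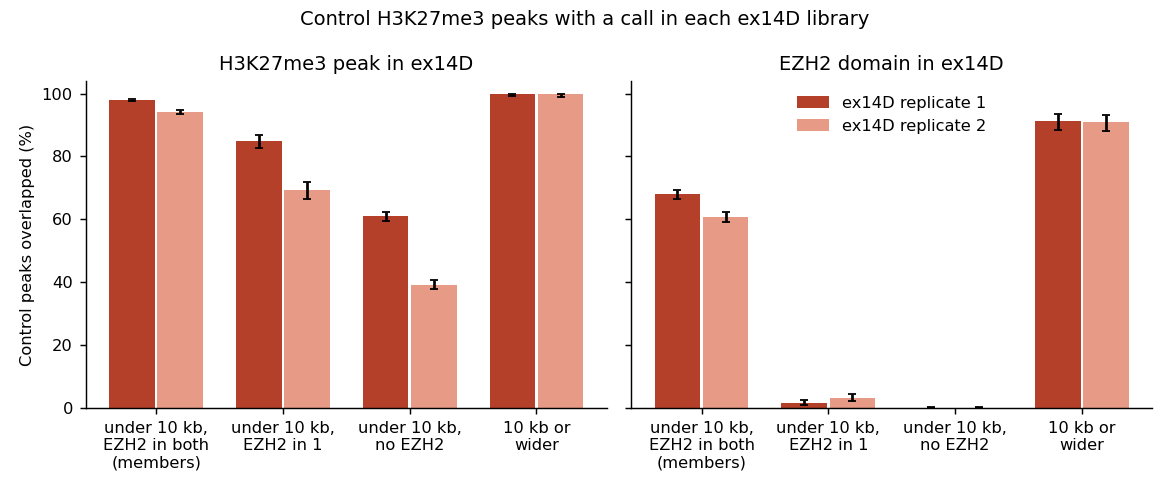
Share of control H3K27me3 peaks (vertical axis, percent) overlapped by an H3K27me3 peak (left) or an EZH2 domain (right) in each ex14D library, for 4 classes of control peak. Bars are shares and lines are exact 95% binomial intervals. Members lie near the wide peaks for H3K27me3 (98.0% and 94.1%) and under them for EZH2 (67.9% and 60.7% against 91.3% and 90.9%).

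EZH2 itself was found again at fewer members than the mark was. An EZH2 domain overlapped 2775 members (67.9%) in ex14D replicate 1 and 2479 (60.7%) in replicate 2. Both libraries had one at 2322 members (56.9%, exact 95% interval 55.3 to 58.4), 1 library had one at 610 (14.9%), and neither had one at 1152 (28.2%). Among all control replicate 1 peaks 23.3% overlapped a domain in both ex14D libraries, and among the wide peaks 89.96% did. The share with EZH2 in both ran from 50.2% to 62.9% across the 19 chromosomes, and the share with H3K27me3 in both from 90.2% to 96.8%. The ex14D libraries had 3458 and 3335 EZH2 domains on these chromosomes, against 5001 and 6802 in control.

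Because the members were chosen in control cells, some loss in any other library follows from the choice. The same rule was therefore applied to the ex14D libraries, which gave 2254 short H3K27me3 peaks with EZH2 in both. Of these, 2247 (99.7%) had an H3K27me3 peak in both control libraries and 2252 (99.9%) an EZH2 domain in both. Almost all short ex14D peaks with EZH2 were thus peaks with EZH2 in control as well, while 1762 of the 4084 control members lacked a domain in at least 1 ex14D library. The ex14D libraries had fewer EZH2 domains (3458 and 3335 against 5001 and 6802), and a smaller set of calls nests more easily in a larger one. The reverse rule therefore cannot tell the number of calls in a library from the genotype.

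**Figure D2:**
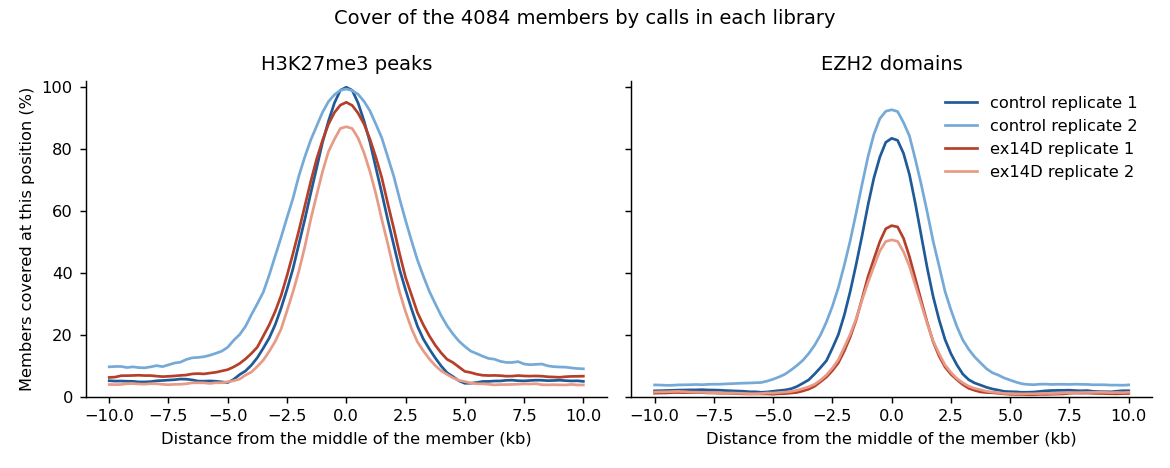
Percent of the 4084 members covered by an H3K27me3 peak (left) or an EZH2 domain (right) at each distance in kb from the middle of the member, for each library. Control replicate 1 reaches 100% at the middle by the way members were chosen. EZH2 covers the middle of 83.5% and 92.7% of members in control and 55.3% and 50.7% in ex14D, while H3K27me3 still covers 95.1% and 87.2% in ex14D.

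Joining the calls of both antibodies member by member, 2307 members (56.5%) kept H3K27me3 and EZH2 in both ex14D libraries. A further 955 (23.4%) kept H3K27me3 in both while EZH2 was called in neither, and 59 (1.44%) had no call of either antibody. The share with H3K27me3 in both ex14D libraries was 99.4% of the 2322 members with EZH2 in both, 93.4% of the 610 with EZH2 in 1 library and 82.9% (80.6 to 85.0) of the 1152 with EZH2 in neither. An overlap of 1 bp can rest on the flank of a member. Of the members with a TSS, the TSS itself lay under an H3K27me3 peak in both ex14D libraries in 92.1% of 1671 with EZH2 in both, in 74.3% of 307 with EZH2 in 1 and in 62.4% (57.6 to 67.0) of 425 with EZH2 in neither. When ex14D peaks had to cover 50% of a member, 83.7% of all members kept the mark in both libraries.

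The members without any ex14D call were short. Their median width was 1063 bp and their median CpG ratio over the whole peak 0.603, compared with 4938 bp and 0.466 in members that kept EZH2 in both libraries. In the 1000 bp at the middle the ratios were close, at 0.638 and 0.629. Only 8 of the 59 held a TSS, and the median distance to the nearest one was 505 bp. The 5 members with the highest control replicate 1 fold enrichment among the 69 without an ex14D H3K27me3 peak lay at or near Selenoo, Gm38426, Prkcz, Tbc1d12 and Zyg11a. They were 1095, 1218, 2242, 1299 and 1471 bp wide, and among them the member at Zyg11a alone held the 5′-most TSS of a gene. At Zyg11a control fold enrichment was 9.91 in replicate 1 and 6.35 in replicate 2.

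Members with more EZH2 in control kept it more often. Where control replicate 1 had up to 1000 bp of EZH2 in a member, 12.5% (10.4 to 14.7) of 939 members had a domain in both ex14D libraries. The share was 44.5% of 1299 members with 1000 to 2000 bp, 82.7% of 912 with 2000 to 3000 bp and 92.0% of 486 with 3000 to 4000 bp. The domains were deposited in bins of 1000 bp with no score, so a shorter domain is also one that a single bin below the caller's limit removes. H3K27me3 in both ex14D libraries rose over the same bins from 81.0% to 95.5%, 98.7% and 99.6%. MACS2 fold enrichment in control gave no steady order, with EZH2 in both ex14D libraries at 53.1%, 62.2% and 55.3% of members from its lowest to its highest tercile.

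**Figure D3:**
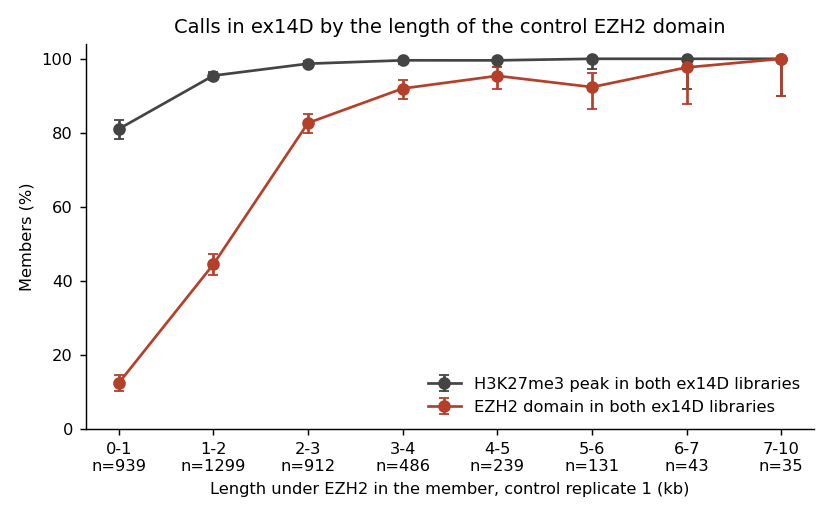
Percent of members (vertical axis) with an H3K27me3 peak or an EZH2 domain in both ex14D libraries, by the length in kb under an EZH2 domain in control replicate 1 (horizontal axis, with the number of members). Points are shares and lines are exact 95% binomial intervals. EZH2 rises from 12.5% to 92.0% over the bins up to 4 kb while H3K27me3 stays above 81.0%.

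Promoter members kept EZH2 more often than the others. A domain was present in both ex14D libraries at 69.5% (67.7 to 71.4) of the 2403 members with a TSS and at 38.7% (36.4 to 41.1) of the 1681 without one. Members with a TSS were wider, and the order was the same at matched width, with 29.8% against 20.8% in the narrowest tercile of members, 67.9% against 51.3% in the middle one and 87.5% against 73.3% in the widest. The TSS lay under EZH2 in 94.5% and 97.9% of these 2403 members in control, and in ex14D the shares were 72.1% and 66.2%. Where EZH2 was called in both ex14D libraries, it lay over the TSS in 92.5% and 91.3% of members.

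Within members, the bases that kept EZH2 were the CpG-dense ones. In the 2322 members with EZH2 in both ex14D libraries, the bases under a domain in all 4 libraries made up 5.15 Mb, with a GC content of 58.5% and a CpG ratio of 0.640. The 1.08 Mb under EZH2 in both control libraries and in neither ex14D library had a ratio of 0.292, and the 2.42 Mb with EZH2 in no library had 0.203. Over all members, the 2.82 Mb with EZH2 in both control libraries and neither ex14D library had a ratio of 0.453. Bases with EZH2 in an ex14D library and in no control library came to 0.110 Mb, or 0.645% of the member bases. Where a member had EZH2 in all 4 libraries, the mean length under it was 3210 and 3985 bp in control and 2524 and 2599 bp in ex14D. The ex14D libraries were the lower ones with no overlap, and the exact two-sided permutation test over the 4 libraries gave p = 0.3333, the smallest that 2 against 2 can give.

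MACS2 fold enrichment of the peaks over members was higher in the ex14D libraries. Over the 3832 members with a peak in all 4 libraries its median was 3.29 and 3.14 in control and 4.80 and 5.41 in ex14D, a ratio of the means of 1.59 (exact two-sided permutation p = 0.3333, the smallest possible). Peaks without EZH2 moved alike, from 3.37 and 3.06 to 4.89 and 6.13, and so did the wide peaks, from 3.61 and 3.31 to 5.86 and 6.68, so the rise was not particular to the members. Median −log10 q over members went from 4.75 and 5.69 to 13.8 and 15.5. Both measures depend on the depth and background of a library, and their part in the rise was not tested. ex14D peaks covered less of the members, with a mean of 88.5% and 78.5% of the width against 96.6% in control replicate 2. Members had to overlap a control replicate 2 peak, and that library had the most peaks, so its cover is partly set by the rule.

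The fold enrichment of single members agreed poorly between replicate libraries. Between the control replicates its rank correlation over the 3832 members was 0.207, and between the ex14D replicates 0.381, although the width under peaks correlated at 0.984 and 0.943. These correlations are descriptions over peaks that share their libraries. Read counts at the promoters of member genes correlated at 0.908 and 0.983 between the same replicates (2459 genes). The 5 members with the highest fold enrichment in control replicate 1 are given as a description, since ranking by that library makes lower values in the others likely. The member near Cpxm1 had 22.1 and 3.16 in control and 7.95 and 16.4 in ex14D. The member at 4930520O04Rik had 20.5 and 2.60 in control and 3.08 and 2.15 in ex14D. The member near Ripor1 had 19.97 and 1.73 in control, 7.48 in ex14D replicate 1 and no peak in replicate 2. The member near Dstyk had 19.3 and 8.89 in control, and that at Cmtm8 18.9 and 5.54.

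Counts at promoters give a measure of level for the members that hold a TSS. Of the 2639 genes with their TSS in a member, 2517 were in the count tables. H3K27me3 was counted in a 1-kb window at the TSS, with 594289 to 1450937 reads on genes a library, and the EZH2 counts, with 13628137 to 18403892 reads, followed gene length and are taken as counts over genes. Member genes held 43.3% and 44.1% of the H3K27me3 reads on genes in control, 41.5% and 38.5% in ex14D, and 11.3% and 11.5% in the inputs. Their share of EZH2 reads was 17.5% and 17.3% in control and 16.5% and 16.2% in ex14D. Counts were scaled by the trimmed mean of M-values (TMM) and compared with edgeR's quasi-likelihood test over all genes. Such scaling shows changes relative to the other genes and cannot show a change shared by all of them.

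Among 2459 member genes tested for H3K27me3, edgeR called 129 lower (5.25%) and 344 higher (13.99%) in ex14D at an adjusted p under 0.05, against 3.19% lower and 5.85% higher of the 14883 genes tested. The median log2 fold change was 0.14 over member genes and -0.02 over all genes. Its direction followed the scaling. With library sizes alone the median of all genes shifted to -0.47 and that of member genes to -0.31, with 498 lower and 81 higher, and with all counted reads as library size 190 were higher and the member median was 0.01. In each of these scalings the member median lay above that of all genes. Leaving out control replicate 2 gave 34 lower and 62 higher, leaving out ex14D replicate 1 gave 40 and 120, and leaving out ex14D replicate 2 gave 16 and 107. The control libraries in this comparison also chose the members, so the values describe the set and are no independent test of it.

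Member genes differed in H3K27me3 between groups split by the ex14D EZH2 calls at their peak. The 1741 tested genes whose member kept EZH2 in both ex14D libraries had a median log2 fold change of 0.27 (-0.18 with library sizes alone), with 337 called higher and 62 lower by edgeR. The 311 genes with EZH2 in 1 ex14D library had a median of -0.07, with 6 higher and 19 lower. The 407 genes with EZH2 in neither had a median of -0.26, with 1 higher and 48 lower. The order of these medians was the same with library sizes alone, where they were -0.18, -0.52 and -0.71. The EZH2 calls used for this split came from other libraries than the H3K27me3 counts. The split also divides the members by size. Median width was 4938 bp with EZH2 in both and 2320 bp with it in neither, and median EZH2 length in control replicate 1 was 3000 and 1000 bp. The groups were not matched on these, and their part in the order was not tested.

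EZH2 counts were lower in ex14D at many member genes, all of which had been chosen for an EZH2 domain in the same control libraries, so that their share of falls is partly set by that choice and is no test against other genes. Of the 2517 genes 1032 had 0 reads in all 4 EZH2 libraries and 1483 were tested. Each of the 2517 has its TSS in a peak with an EZH2 domain in both control libraries, so 0 reads do not show that EZH2 was absent. Why these genes had no reads was not tested, and the shares cover the tested genes alone. Of the tested member genes edgeR called 560 lower (37.8%) and 0 higher, against 7.88% lower and 0.0522% higher of 13401 genes tested. At an unadjusted p under 0.05, 10 were higher, and DESeq2 called 373 lower and 0 higher. The median log2 fold change was -0.19 over member genes and 0.02 over all genes tested. In genes with EZH2 domains in both ex14D libraries the median was -0.25, with 498 of 1080 called lower. It was -0.12 in those with 1 (35 of 178) and -0.07 in those with neither (27 of 225). These counts run over genes and not over the members, so the order cannot show how EZH2 changed at the members themselves. Of 427 genes with a domain in neither, 202 had 0 reads in all 4 EZH2 libraries, and of 1772 with domains in both, 690 did. With either control EZH2 library left out 0 genes were called, while 673 and 659 member genes were lower at an unadjusted p under 0.05 by edgeR without replicate 1 and without replicate 2. The median stayed between -0.25 and -0.15 under the alternatives run.

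**Figure D4:**
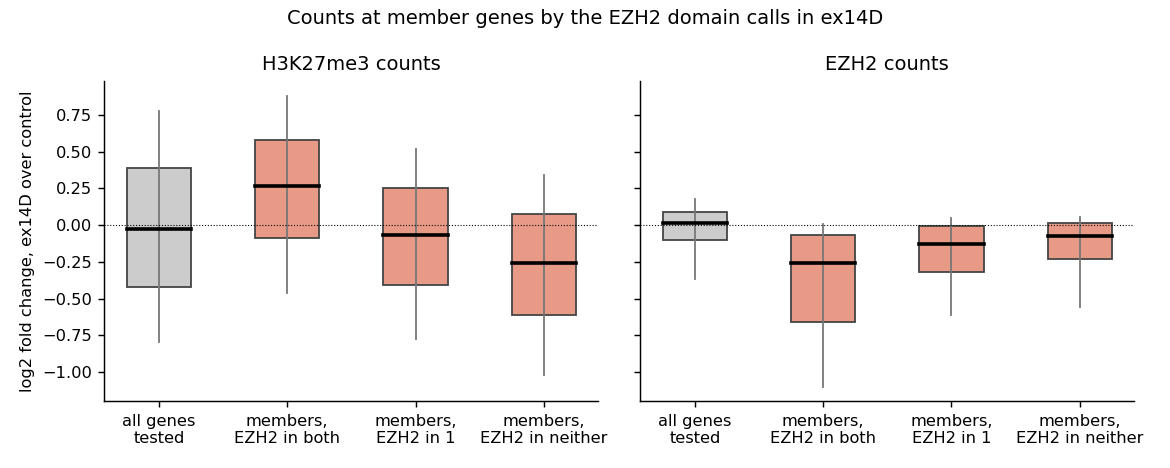
log2 fold change of ex14D over control (vertical axis) in H3K27me3 promoter counts (left) and EZH2 counts (right) for all genes tested and for member genes with an EZH2 domain in both, 1 or neither ex14D library. Boxes span the quartiles, thick lines are medians and thin lines run from the 10th to the 90th percentile. The H3K27me3 medians of member genes are 0.27, -0.07 and -0.26 for EZH2 in both, 1 and neither (all below 0 with library sizes alone, in the same order), while their EZH2 medians are all below 0.

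The largest falls in H3K27me3 were at member genes without an EZH2 domain in ex14D. Gjc1 had 120 and 38.6 CPM (reads scaled to a common library size) in control and 9.91 and 7.96 in ex14D, a log2 fold change of -3.07 ± 0.47 (SE, edgeR adjusted p = 6e-05). Sall1, a zinc-finger transcription factor gene, had 233 and 31.1 CPM in control and 24.0 and 15.9 in ex14D. Its control libraries lay far apart, and without control replicate 1 the fold change of -2.65 became -0.66 and was no longer called (edgeR adjusted p = 0.354). Bnc2, another zinc-finger gene, had 122 and 24.5 CPM in control against 12.4 and 9.95, and its call was lost in the same way (edgeR adjusted p = 0.101 without control replicate 1). Cspg5, a neural proteoglycan gene, had 146 and 101 CPM in control against 29.7 and 29.9. The noncoding A330009N23Rik had 65.5 and 34.8 CPM against 14.9 and 8.95, a call lost without ex14D replicate 2 (edgeR adjusted p = 0.0573). Groups that did not overlap were a condition for naming these 5. The peaks at all 5 overlapped no EZH2 domain in either ex14D library. An H3K27me3 peak still overlapped the Gjc1 member in both ex14D libraries, away from the window printed above, and the other 4 members in 1. EZH2 domains in control replicate 1 covered 2000 to 3000 bp at Gjc1, Sall1, Bnc2 and Cspg5, and 1000 bp at A330009N23Rik. The domains carry no score, so a missing call does not show that EZH2 was absent. EZH2 counts over the Cspg5 gene were 24.3 and 25.5 CPM in control and 20.9 and 21.4 in ex14D (edgeR adjusted p = 0.123).

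The largest rises in H3K27me3 were at member genes that kept EZH2 in both ex14D libraries. Kcnk9, a potassium channel gene, went from 591 and 481 CPM to 1576 and 2240, a log2 fold change of 1.83 ± 0.22 (SE, edgeR adjusted p = 4e-06). Pcdh17, a protocadherin gene, had 177 and 184 CPM in control and 515 and 635 in ex14D. Pou3f1, a POU-domain transcription factor gene of the nervous system, had 207 and 283 CPM against 727 and 814. Rasef had 32.0 and 61.2 CPM against 127 and 170. Ppp1r3d, a regulatory subunit gene of protein phosphatase 1, was low, with 7.62 and 10.3 CPM against 37.99 and 23.9, and its call was lost without control replicate 2 or ex14D replicate 1. EZH2 covered 6000 bp of the Kcnk9 member in both ex14D libraries, and 5000 and 6000 bp in control.

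The 5 largest falls in EZH2 counts were at members that still had a domain in both ex14D libraries. Gas1, a Hedgehog co-receptor gene, had 55.96 and 62.1 CPM in control and 19.1 and 10.3 in ex14D, a log2 fold change of -2.04 ± 0.21 (SE, edgeR adjusted p = 0.00356). Gm996 (RefSeq symbol Ajm1) had 89.98 and 103 CPM against 37.9 and 15.6. Gsc2, a homeobox gene, had 34.7 and 36.7 CPM against 14.5 and 9.20, and Lor, the loricrin gene of the cornified skin barrier, had 70.5 and 78.5 against 31.6 and 18.7. Gp5, a platelet glycoprotein gene, had 27.1 and 22.6 CPM against 9.89 and 7.05. H3K27me3 was called lower at Gas1 alone among these 5, with 110 and 81.9 CPM in control and 41.3 and 34.8 in ex14D (edgeR adjusted p = 0.00534), a call lost without control replicate 2 or either ex14D library. At Gsc2 it was 326 and 319 CPM in control and 310 and 294 in ex14D. Each of the 5 EZH2 calls was lost without either control library.

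**Figure D5:**
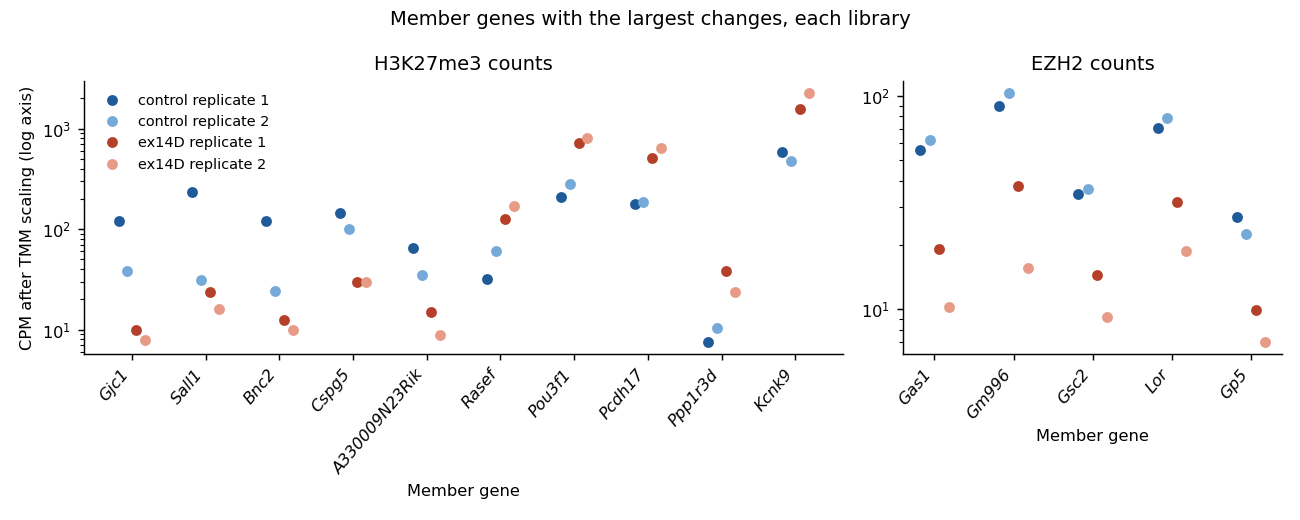
CPM after TMM scaling (log axis) in each control and ex14D library for the member genes with the largest changes in H3K27me3 counts (left) and EZH2 counts (right). Each point is 1 library. At Sall1 and Bnc2 the control libraries lie wide apart (233 and 31.1 CPM, 122 and 24.5 CPM), while at Kcnk9 both ex14D libraries (1576 and 2240 CPM) lie above both control libraries.

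Genes the study had followed by ChIP-PCR or as mesoderm markers fell into different classes of peak. The TSS of Elavl3, Bmp6 and Mixl1 lay in members, those of Hoxa10, Hoxd9, Pax7, T and Eomes in peaks of 10 kb or wider, that of Nphs1 in a peak without EZH2 and that of Fgf4 in a peak seen in control replicate 1 alone. Shc3, Runx2 and Utf1 had no control replicate 1 peak at their TSS. The Elavl3 member was 3173 bp wide (chr9:22050016-22053188) and had 2985 bp of EZH2 in each control library and 1000 bp in each ex14D library. H3K27me3 at its promoter was 306 and 191 CPM in control and 133 and 118 in ex14D, a log2 fold change of -0.97 ± 0.24 (SE, edgeR adjusted p = 0.00835), a call lost when control replicate 1 or either ex14D library was left out. The Bmp6 member (6708 bp, chr13:38343622-38350329) had 5000 and 5379 bp of EZH2 in control and 4000 and 5000 bp in ex14D. Its H3K27me3 went from 562 and 391 CPM to 1040 and 1404, a log2 fold change of 1.36 ± 0.22 (SE, edgeR adjusted p = 9.7e-05). By ChIP-PCR the study reported less H3K27me3 at both Bmp6 and Elavl3 in ex14D cells. Its Western blots showed lower total H3K27me3 and EZH2 in the mutant lines. The scaled counts here are relative to other genes and cannot show such a shared fall, so the Bmp6 rise is a relative one. The Mixl1 member (5660 bp, chr1:180694749-180700408) had 223 and 207 CPM of H3K27me3 in control and 212 and 195 in ex14D, a log2 fold change of -0.07 ± 0.21 (SE, edgeR adjusted p = 0.894). Mixl1 EZH2 counts were 21.5 and 18.0 CPM in control and 8.94 and 6.99 in ex14D, a log2 fold change of -1.31 ± 0.15 (SE, edgeR adjusted p = 0.00398).

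Most genes of the Hox, Pax and other homeobox lists sat in wider peaks, while several signalling, receptor and channel lists had many genes in members. Over all annotated genes of chromosomes 1 to 19, 2639 of 24963 had their TSS in a member. None of the 39 Hox genes, 1 of 9 Pax genes and 11 of 71 other homeobox genes had their TSS in a member, against 39, 7 and 56 in peaks of 10 kb or wider. By contrast, members held 22 of 39 genes for Wnt ligands, Frizzled receptors and Wnt antagonists, 52 of 94 neurotransmitter receptor genes, 50 of 91 potassium channel genes, 37 of 70 axon guidance genes and 19 of 42 genes of BMP and TGF-beta signalling. Members also held 5 of 17 Hedgehog and Notch genes, 7 of 18 Sox genes, 5 of 14 Nkx genes, 13 of 50 bHLH genes, 11 of 28 FGF genes, 15 of 39 calcium and sodium channel genes, 31 of 94 cadherins and protocadherins and 16 of 42 collagens. None of 81 ribosomal protein genes and 228 vomeronasal type 1 receptor genes had a control replicate 1 peak at its TSS. None of 7 CDK inhibitor genes was a member gene, but 3 lay in peaks of 10 kb or wider. Of 1104 olfactory receptor genes, 2 were member genes. The lists were drawn by family name with earlier results of these data known, so the counts describe them and test nothing.

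Over all member genes tested, H3K27me3 was called higher at 13.99% and lower at 5.25%, and EZH2 lower at 37.8%. Over all genes tested these shares were 5.85%, 3.19% and 7.88%. Of all 2403 members with a TSS, 97.6% kept H3K27me3 and 69.5% kept EZH2 in both ex14D libraries. The counts in each family below stand beside these shares, and no family was tested against them. All 22 Wnt pathway genes in members kept H3K27me3 in both ex14D libraries and 20 kept EZH2 in both. H3K27me3 counts were higher at 5 of the 22 tested (Wnt2, Wnt2b, Wnt3a, Wnt7a and the antagonist gene Dkk2) and lower at 0, with a median log2 fold change of 0.45, and EZH2 counts were lower at 8 of 13. Wnt7a, a secreted Wnt ligand gene, had 443 and 424 CPM of H3K27me3 in control and 757 and 882 in ex14D. Of the 19 BMP and TGF-beta genes, 18 kept H3K27me3 and 16 kept EZH2 in both, H3K27me3 was higher at 5 (Bmp6, Bmp8b, Fst, Fstl4 and Grem1) and lower at 0, and EZH2 was lower at 6 of 12 tested. Fst, which encodes the activin antagonist follistatin, had 398 and 344 CPM of H3K27me3 against 631 and 641. Ihh, a Hedgehog ligand gene, had 675 and 605 CPM against 1423 and 1750, while its EZH2 counts fell from 192 and 175 CPM to 125 and 81.4. Fgf5, an FGF ligand gene, had 165 and 219 CPM of H3K27me3 against 533 and 533. It was the 1 FGF gene of 11 tested called higher, and 1, Fgf20, was lower. The median log2 fold change of the 11 was -0.20. Fgfr1 had 67.0 and 61.2 CPM against 41.3 and 44.8, and Fgfr4 had 171 and 179 against 149 and 155. Neither was called.

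Channel and receptor genes kept H3K27me3 nearly throughout, with EZH2 at most of them, as did members with a TSS as a whole. Of 50 potassium channel genes in members, 37 kept EZH2 in both ex14D libraries and 7 had it in neither, and all 50 kept H3K27me3 in both. H3K27me3 counts were higher at 9 and lower at 3, and EZH2 counts were lower at 16 of 31 tested. Kcnj12 had 401 and 225 CPM of H3K27me3 in control and 214 and 170 in ex14D, and was not called. Of 52 neurotransmitter receptor genes, 40 kept EZH2 in both and 51 kept H3K27me3 in both, with H3K27me3 counts higher at 13 and lower at 0. Adra1d, an alpha-adrenergic receptor gene, had 378 and 333 CPM of H3K27me3 in control and 632 and 548 in ex14D. Gabrd, of the same list, had 143 and 159 CPM against 121 and 96.5, and was not called. Of 31 cadherin and protocadherin genes, 21 kept EZH2 in both and 6 had it in neither, and Pcdhb2 was 1 of the 6, with 1000 and 2000 bp of EZH2 in control and none in ex14D. Of 37 axon guidance genes 34 kept EZH2 in both, with H3K27me3 counts higher at 9 and lower at 1 (Ephb2, an ephrin receptor gene). Whether these families differ from each other was not tested.

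Transcription factor genes in members kept both calls in most cases, as did members with a TSS as a whole. All 5 Nkx genes and all 7 Sox genes in members kept H3K27me3 and EZH2 in both ex14D libraries, and H3K27me3 counts were higher at Nkx2-4, Nkx2-9, Nkx6-2, Sox7 and Sox11 and lower at Sox13. Of the genes named beside such counts in these families, those without values were picked after their calls were seen. Nkx2-4 had 673 and 487 CPM of H3K27me3 in control and 1373 and 1640 in ex14D. Nkx6-3 had 62.5 and 71.5 CPM against 59.5 and 49.8, and was not called. Sox11, a neural SoxC gene, had 105.1 and 106 CPM against 263 and 259. Dbx2, a neural tube homeobox gene, and Snai2, the Slug repressor gene, kept H3K27me3 in both ex14D libraries but had an EZH2 domain in neither. Of 29 genes for PRC2 and PRC1 subunits, 4 were member genes and all 4 kept both calls. Phf19, which encodes a PRC2 accessory subunit, had EZH2 counts of 41.3 and 44.5 CPM in control and 31.5 and 30.4 in ex14D. Prdm14, a pluripotency regulator gene, had 40.6 and 35.5 CPM against 21.7 and 19.2, the only member gene among 19 in the pluripotency list.

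The members that kept H3K27me3 without an EZH2 domain in ex14D included promoters and sites near genes. The 5 with the highest control fold enrichment among the 955 lay at or near Cpxm1, 4930520O04Rik, Dbndd1, Hdac7 and Prr5. They had 806, 1000, 3000, 2000 and 2000 bp of EZH2 in control replicate 1 and none in ex14D. Fold enrichment in ex14D at Prr5 was 7.47 and 8.32, at Dbndd1 4.52 and 7.30, and near Hdac7 4.05 and 3.95. The H3K27me3 of all 5 was called in both ex14D libraries.

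The members closest to the width limit were 9998 bp wide near Fgfr3, with 6000 and 9998 bp of EZH2 in control and 4000 and 6000 bp in ex14D, and 9993 bp wide at Foxi3, with 5000 and 8687 bp against 3000 and 4687 bp. The nearest peaks outside were 10000 bp wide at Chst11, with 5000 and 7000 bp of EZH2 in control and 3000 bp in each ex14D library, and 10032 bp wide near Fam53a, with 1000 and 3000 bp in control and none in ex14D. With the limit at 5000 bp in place of 10000 bp, 2733 members remained, of which 91.0% kept H3K27me3 and 43.3% kept EZH2 in both ex14D libraries.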

How the data were processed

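ChIP-seq libraries of 2 control and 2 ex14D samples for each of H3K27me3 and EZH2, with 1 input a genotype, were grouped by the genotype and antibody in the labels. The authors aligned reads to mm10 with Bowtie. The deposited counts, made by the authors with htseq-count, are unnormalized numbers of reads for each gene. Reads assigned to no gene were 92.4% to 94.4% of counted reads in the H3K27me3 libraries, 55.7% to 56.1% in the EZH2 libraries and 98.1% in the inputs, and stayed out of library sizes. The authors called MACS2 broad peaks in each library, and each deposited peak carries the caller's fold enrichment with −log10 values of its p and its q. Which control MACS2 was given is not given in the sources used here. EZH2 domains of hiddenDomains were deposited as positions in 1000-bp bins without a score, although the methods name 200-bp bins. The H3K27me3 domains were not used here, because they run past the ends of the GRCm38 chromosomes.

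Peaks and domains were overlapped by at least 1 bp on chromosomes 1 to 19. TSSs, exons and bases came from GRCm38 and its RefSeq annotation, on which 24334 of 24500 counted genes were placed. Counts were compared with edgeR 4.0.16 in R 4.3.3 (filterByExpr, TMM, quasi-likelihood F test, Benjamini-Hochberg adjustment over all genes tested, threshold 0.05), with DESeq2 1.42.0 as an alternative. Standard errors were derived as the size of the log2 change over the root of the F statistic. No pair of replicate libraries was alike within sampling noise (chi-square over its degrees of freedom 1.48 to 3.95). On simulated counts of the H3K27me3 comparison, 46% of 100 changes of 2-fold and 97% of 100 changes of 4-fold were recovered among 13679 genes, and 4.67% of calls were false. For EZH2, 100% of 2-fold changes were recovered among 13335 genes and 3.38% of calls were false. The simulated counts had the fitted spread and as many rises as falls, whereas the EZH2 calls were 1056 lower and 7 higher. These rates therefore do not cover errors from scaling or from a single library that stands apart.

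The members, gene lists and tests were chosen with earlier results of these data known. Named genes were those the study followed in ES cells, the members of highest control replicate 1 fold enrichment among all, among those without ex14D calls and for each gene list, those nearest the width limit, and the 5 member genes that fell most and the 5 that rose most by each antibody, taken from those past the threshold whose mean log2 CPM reached 3 and whose 4 library pairs moved 1 way. No member gene rose in EZH2. Shares carry exact 95% binomial intervals. Alternatives covered overlap, peak threshold and number, width limit, scaling, test, filter and each library left out. Overlaps and sequences were handled in Python 3.11.15 with pysam 0.24.0, scipy 1.17.1 and pandas 2.3.3.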

Additional observations from a re-analysis of the deposited data

How the results depend on the processing

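The share of members with H3K27me3 in both ex14D libraries was 93.8% and moved by more than the spread between the ex14D libraries in 4 settings with all libraries: 83.7% when ex14D peaks covered 50% of the member, 83.9% with −log10 q of at least 2, 72.2% with equal numbers of peaks and 91.0% under 5000 bp. With libraries left out it ranged from 88.0% (without control EZH2 replicate 1) to 98.0% (without ex14D replicate 2). The share with EZH2 in both was 43.7% when ex14D domains covered 50% of the mean control length, 43.3% under 5000 bp and 65.8% when control domains covered 50% of the member. With libraries left out it ranged from 44.2% (without control EZH2 replicate 1, with 5267 members) to 67.9% (without ex14D replicate 2). The difference from peaks without EZH2 was 38.6 and 25.3 points in the lowest and highest terciles of width, and 37.0 to 73.7 points with libraries left out. The difference in median fold enrichment was 2.45 with −log10 q of at least 2, against 1.89. Any annotated TSS lay in 63.6% of members, a TSS within 1000 bp of 74.5%, and 50.4% of members under 5000 bp held one. Median CpG ratio and GC were 0.556 and 56.7% in the 1000 bp at the middle, and 0.464 and 52.7% under 5000 bp.

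Of member genes, edgeR called 498 lower and 81 higher in H3K27me3 with library sizes alone, 190 higher with all counted reads as library size, and 211 lower when a TSS within 1000 bp of a member counted. Leaving out 1 library gave 16 to 157 lower and 62 to 312 higher, fewest lower without ex14D replicate 2 and fewest higher without control replicate 2. For EZH2, DESeq2 called 373 lower, library sizes alone or all counted reads gave 1 higher each, and leaving out 1 library gave 0 to 818 lower and 0 to 2 higher. Each left-out setting has 1 library in a group, which is taken to vary like the others. The cause of these shifts was not tested. With the replicate number as a block, 112 were lower and 274 higher in H3K27me3, and 451 lower and 0 higher in EZH2. Whether same-numbered libraries share more than a number was not stated. Their deviations correlated at -0.102 for H3K27me3 and -0.0317 for EZH2. Of 601 values of 55 named gene results under the alternatives, 0 changed sign and 130 lost their call, and 11 of the 55 kept it throughout. The median H3K27me3 promoter count was 84 to 180 reads a member gene, and the common dispersion between libraries was 0.0242 for H3K27me3 and 0.00304 for EZH2. Which of depth and spread limits the calls was not tested.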
